A study of Mus musculus with 16 samples.

Results

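Very broad H3K27ac domains were stretches of regenerating mouse liver chromatin that carried histone H3 acetylated on lysine 27 over at least 10000 bp without a called gap. The members were chosen by width and overlap: regions of at least 10000 bp on chromosomes 1 to 19 in the WT list that shared at least 1 bp with a region of the KO list. This rule took 914 of the 61992 WT regions on these chromosomes (63321 regions in all). The members were thus selected on their WT width and on the presence of some KO signal, so that neither is a result here.

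The series profiled the transcription factor E2f4 and the marks H3K4me2 and H3K27ac by ChIP-seq (chromatin immunoprecipitation and sequencing) in frozen liver, collected 40 h after removal of most of the organ by partial hepatectomy. WT livers were Arid1a Fl/Fl, with both Arid1a alleles floxed and no Cre. KO livers were Arid1a Fl/Fl; Alb-cre, in which the albumin promoter drives Cre and so limits deletion to hepatocytes and other cells with an active albumin promoter. All mice were on a mixed C57/B6 and 129 background at postnatal day 90, and every group had undergone the hepatectomy. Each mark had 1 library per genotype and E2f4 had 2, each represented by the authors' list of called regions on build mm10, so that no difference in a mark has a replicate check. Whether the E2f4 replicates came from separate animals is not given, and their spread may be technical.

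Acetylation of H3K27 marks active promoters and enhancers and is laid down by the acetyltransferases p300 and CBP. Where many enhancers lie close together the mark runs on over long stretches, and such stretches are known to gather at genes that set a cell's identity. H3K4me2 marks promoters and enhancers, whether active or poised. Arid1a belongs to SWI/SNF, a remodeller that uses ATP to move nucleosomes and keeps many enhancers open.

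The H3K27ac libraries differed in marks on the sex chromosomes, and the labels give no sex. The WT H3K27ac list held 10 regions on chromosome Y, at Kdm5d, Eif2s3y, Uty and Ddx3y among others, and none within 1000 bp of Xist, the RNA gene that silences an X chromosome in female cells. The KO H3K27ac list held 1 region at Xist and none at these Y genes. Both H3K4me2 lists held regions at Xist and none at these Y genes, and the E2f4 lists held none at any of them. In the H3K27ac comparison the genotype and these sex chromosome marks therefore cannot be told apart, and in the H3K4me2 comparison the marks did not differ. The lists hold no read counts, so depth is unknown. The KO H3K27ac list was shorter than the WT list (54652 against 63321 regions) and covered less of chromosomes 1 to 19 (102.2 against 110.7 Mb), yet held more regions of at least 10000 bp (1026 against 919). The region lists cannot show whether Arid1a was deleted.

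Promoters inside the domains were of more than a single kind, and 5 from wide domains are shown to make this visible. They are the 250 bases before an annotated start (RefSeq, GRCm38.p6, which has the coordinates of mm10), 5′ to 3′, of genes from the lists described below. Fga and Fgb encode fibrinogen chains and lie in the same domain, Tat encodes tyrosine aminotransferase, Por encodes the reductase that supplies electrons to cytochromes P450, and Rxra encodes the shared partner of many nuclear receptors. Capitals mark matches, on either strand, to 8 searched motifs: the TATA box TATAAA, the CCAAT box, the GC box GGGCGG, an HNF1 core GTTAAT, a forkhead core TGTTTAC, a C/EBP motif TTGCNNAA, a nuclear receptor core AGGTCA and an E2F motif TTTNGCGC.
Fga, chr3:83025903-83026152, plus strand: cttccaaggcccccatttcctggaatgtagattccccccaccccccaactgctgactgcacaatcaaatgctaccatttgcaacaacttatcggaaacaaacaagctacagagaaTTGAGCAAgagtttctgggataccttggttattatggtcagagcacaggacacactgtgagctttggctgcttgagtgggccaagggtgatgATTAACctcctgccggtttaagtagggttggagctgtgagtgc
Fgb, chr3:83049864-83050113, minus strand: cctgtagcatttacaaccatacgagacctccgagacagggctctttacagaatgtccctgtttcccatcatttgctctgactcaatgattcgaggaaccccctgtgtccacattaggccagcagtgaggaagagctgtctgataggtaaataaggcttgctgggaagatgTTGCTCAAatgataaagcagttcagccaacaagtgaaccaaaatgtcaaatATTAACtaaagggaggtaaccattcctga
Tat, chr8:109990186-109990435, plus strand: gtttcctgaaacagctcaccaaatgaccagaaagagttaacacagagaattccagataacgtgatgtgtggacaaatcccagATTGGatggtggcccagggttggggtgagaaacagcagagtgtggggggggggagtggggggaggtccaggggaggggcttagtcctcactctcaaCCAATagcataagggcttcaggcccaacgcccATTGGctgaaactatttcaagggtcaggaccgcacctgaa
Por, chr5:135688895-135689144, plus strand: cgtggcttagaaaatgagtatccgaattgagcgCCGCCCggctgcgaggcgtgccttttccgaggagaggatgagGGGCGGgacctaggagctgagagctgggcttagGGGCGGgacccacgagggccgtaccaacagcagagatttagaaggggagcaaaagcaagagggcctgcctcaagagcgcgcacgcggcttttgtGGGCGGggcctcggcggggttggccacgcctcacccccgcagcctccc
Rxra, chr2:27676951-27677200, plus strand: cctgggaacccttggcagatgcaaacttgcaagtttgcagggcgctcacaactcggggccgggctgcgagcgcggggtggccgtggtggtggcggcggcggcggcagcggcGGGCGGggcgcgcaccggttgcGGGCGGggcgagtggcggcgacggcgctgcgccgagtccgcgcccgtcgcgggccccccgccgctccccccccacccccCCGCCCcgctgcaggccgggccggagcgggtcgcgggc
Fga and Fgb each held an HNF1 core match (43 and 29 bases before the start) and a C/EBP match (135 and 80 bases before it). Tat held 3 CCAAT boxes, while Por and Rxra held 4 and 3 GC boxes. CpG dinucleotides numbered 2, 3 and 3 in the Fga, Fgb and Tat stretches, and 21 and 40 in those of Por and Rxra. No base lay in more than 1 match in these promoters. The same rule also gave promoters of Eng, Lrp1 and Gpam, which are not shown. That of Eng held 4 CpG and no match, and that of Lrp1 13 CpG, a GC box and an E2F match. The Gpam promoter held 21 CpG, a GC box and a nuclear receptor core.

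Over all 632 promoter entries whose start lay in a domain (499 genes), the GC box was the motif whose share differed most, in percentage points, from that of all 20085 entries. It was found in 53.2% of them against 43.4% of all, with a median of 12 CpG against 10 and a median GC content of 59.2% against 56%. The HNF1 core was found in 7.28% against 5.84%, the nuclear receptor core in 14.4% against 12.9%, and the C/EBP motif in 9.02% against 9.19%. The TATA box was found in 9.81% against 11.7%, the CCAAT box in 36.4% against 35.3%, the forkhead core in 2.69% against 2.64% and the E2F motif in 1.27% against 1.44%. A match is a description of letters and not a bound site, and starts of a gene that lie close together share sequence.

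Domains also held microRNA genes, small RNAs that repress messages paired with their seed, the bases 2 to 8 of the mature strand. Of 919 hairpins on chromosomes 1 to 19, 25 (2.72%) lay wholly in a domain, spread over 20 domains. The 10 mature strands below (RefSeq, GRCm38.p6) were chosen after the list had been seen, as well-studied arms of these hairpins, with the seed in capitals.
miR-21a-5p: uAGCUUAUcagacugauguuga
miR-126a-3p: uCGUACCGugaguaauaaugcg
miR-23a-3p: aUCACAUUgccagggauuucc
miR-27a-3p: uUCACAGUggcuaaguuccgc
miR-24-3p: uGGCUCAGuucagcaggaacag
miR-101b-3p: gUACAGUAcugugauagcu
miR-22-3p: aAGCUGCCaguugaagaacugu
miR-148b-3p: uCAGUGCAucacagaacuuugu
let-7b-5p: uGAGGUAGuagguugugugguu
let-7c-5p: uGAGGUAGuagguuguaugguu
The let-7b and let-7c strands share the seed GAGGUAG and come from the same domain, and the other strands shown have seeds of their own. Mir21a, a microRNA gene known to rise in regenerating liver, lay in a domain of 36154 bp at chr11:86571713-86607866 that overlaps the neighbouring gene Vmp1, and KO H3K27ac covered 97.9% of it. The Mir23a, Mir27a and Mir24-2 cluster lay in a domain of 11814 bp that was 81.3% covered, and Mir126a, an endothelial microRNA gene, in a domain of 23120 bp that was 94.4% covered. The domains of Mir101b (97.1%), Mir22 (100%), Mir148b (93.4%) and the let-7 pair (90.6%) were also covered over most of their length.

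The domains had a median width of 13304 bp (quartiles 11192 and 16769), and together they spanned 14.1 Mb, which is 12.7% of the WT H3K27ac length on 1.47% of its regions. A total of 136 reached 20000 bp, 39 reached 30000 bp and 3 reached 50000 bp. The widest by far ran over 113309 bp inside Mtss1 (chr15:58969032-59082340), which encodes a membrane and actin-binding protein. In the KO list it was a single region of 113690 bp that covered 99.7% of the WT domain. The next were 54059 bp within Shb (an adaptor of tyrosine kinase signalling, 98.9% covered), 53536 bp at the start of Sh3bp5 (96.3%) and 46024 bp at the start of Adk, adenosine kinase (99.9%).

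Among the 12 widest domains, KO coverage fell below 90% at 3. Cyb5a (cytochrome b5, 42533 bp) was 98.6% covered, an intragenic domain of Zbtb16 (a zinc finger repressor, 41879 bp) 96.0%, and one inside Igf1 (the main growth factor secreted by liver, 40090 bp) 96.1%. The domain of 38167 bp at Klf13 and E030018B13Rik was wholly covered, and that of 37689 bp over the long non-coding RNA gene Neat1, which touches Frmd8 by 1241 bp, was 96.7% covered. The 3 that were less covered lay in Tns1 (a focal adhesion protein, 41776 bp, 87.6%), Por (39839 bp, 77.4%) and Eng (an endothelial TGF-beta co-receptor, 36702 bp, 75.6%), and there the KO signal was broken into 6, 6 and 9 regions. So the lower coverage at these 3 went with fragments across the width, as the map of called regions shows for Por.

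**Figure D1:**
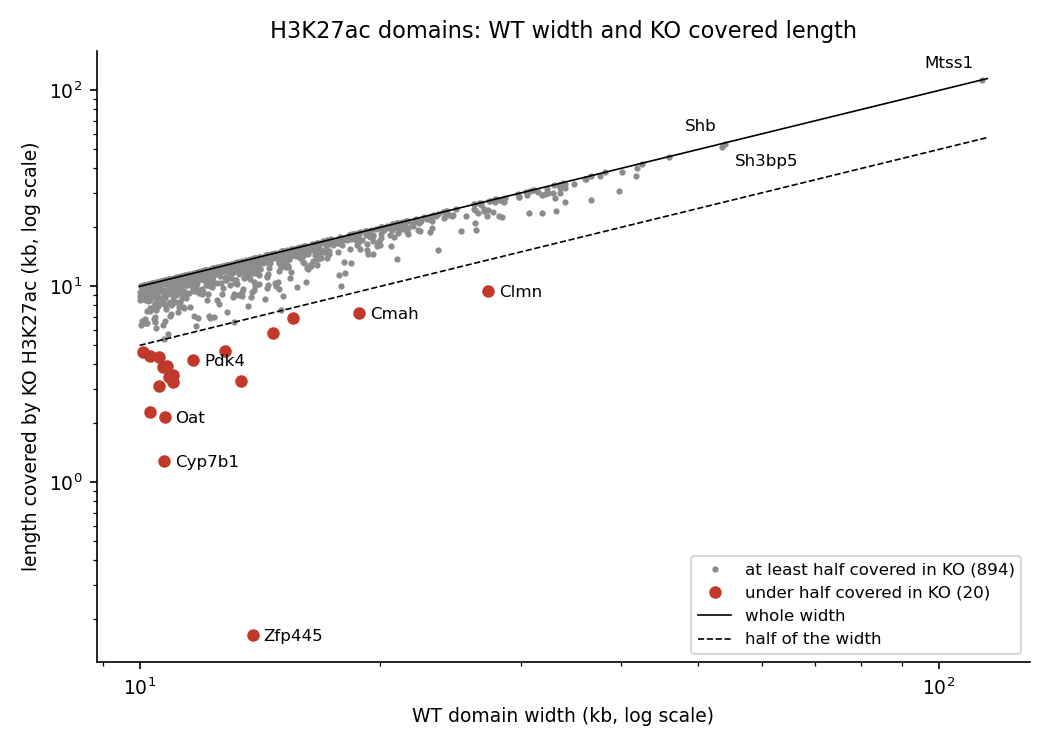
Width of each of the 914 domains in WT (horizontal axis, kb, log scale) against the length of it covered by KO H3K27ac (vertical axis, kb, log scale). Each point is a domain. The 20 domains with under 50% of their length covered in KO are red, and most other points sit close to the solid line of whole coverage, as Mtss1 does at 113309 bp.

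KO H3K27ac covered 12.7 Mb of the 14.1 Mb, or 90.5% of the domain length, with a median of 94.3% per domain (quartiles 85.7 and 99.5). A total of 195 domains were wholly covered, 596 were covered to at least 90% and 814 to at least 75%. Under 50% coverage was found in 20 domains (2.19%, exact Clopper-Pearson 95% interval 1.34 to 3.36, counting error over regions only). Among all 40882 WT regions with a KO overlap that share was 18.5%. The count was 63 of 826 domains when both lists were limited to −log10 q of at least 5. It was 71 of 1502 when regions less than 1000 bp apart were merged. The share over all regions was not computed under either setting. In the unfiltered lists the share under 50% dropped with width. It was 22.4% of regions under 2000 bp, and 14.7% and 7.47% in the bins from 2000 and from 5000 bp. The covered length rose from 74.2% to 78.2, 83.8 and 90.5%. Wider regions also had higher enrichment, with a median authors' fold of 3.65 in the narrowest bin and 6.74 in the domains. The rule requires a KO overlap and width was measured on the same signal, so these values describe the members and test nothing.

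**Figure D2:**
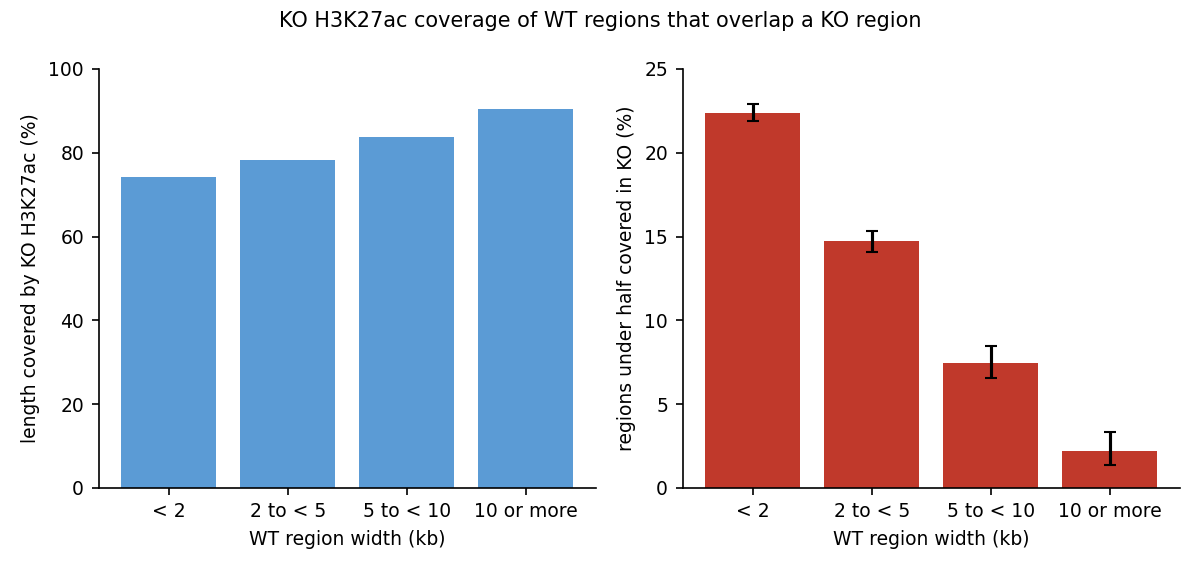
Length covered by KO H3K27ac (left, %) and the share of regions under 50% covered (right, %, with exact 95% intervals) for WT regions that overlap a KO region, by WT width in kb. From the narrowest to the widest bin the covered length rises from 74.2 to 90.5% and the share under 50% drops from 22.4 to 2.19%.

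The KO list often drew the boundaries elsewhere. In 512 domains the KO signal was 1 region, in 402 it was 2 or more and in 61 it was 4 or more. A total of 657 domains overlapped a KO region of at least 10000 bp, and 365 overlapped a KO region wider than themselves. Some KO regions joined neighbouring WT domains: 21 KO regions overlapped at least 2 domains each, and the following examples were chosen after their values were seen. A KO region of 98447 bp (chr2:27670395-27768841) ran through 3 domains at Rxra of 36676, 33842 and 21559 bp, all wholly covered. A KO region of 57742 bp spanned the fibrinogen cluster, where WT had domains of 30813 bp at Fga and Fgb and 14493 bp at Fgg. At the Apoe cluster a KO region of 30865 bp joined domains of 16166 and 13855 bp, and at Hnf4a a KO region of 32777 bp joined 2 domains. Other wholly covered domains among the widest lay in Plpp3 (32967 bp), in Ppp2r5e (29724 bp) and at chr6:31121096-31152229 (31134 bp), away from any protein-coding gene. Splits in the other direction occurred at Por, Eng and Tns1 as given above.

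**Figure D3:**
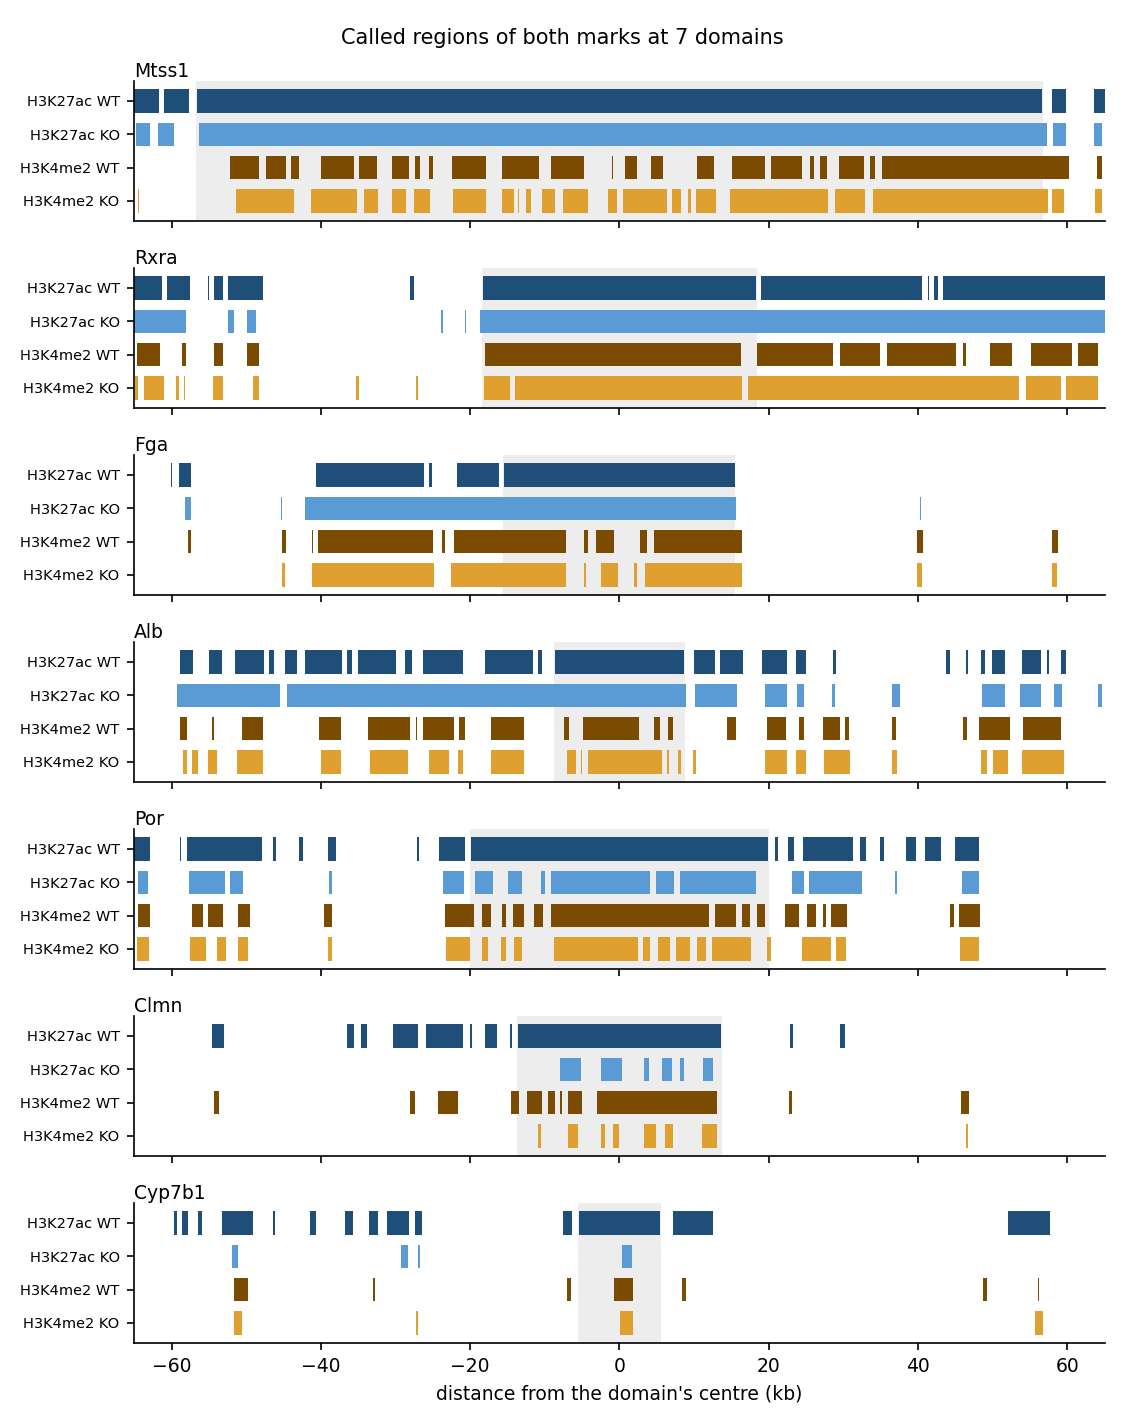
Called regions of H3K27ac and H3K4me2 in WT and KO at 7 domains, by distance from the centre of the WT domain (kb), with the domain shaded. KO H3K27ac runs on as a single region across the domains of Mtss1, Rxra, Fga and Alb, is broken into 6 regions at Por and at Clmn, and is reduced to 1 region of 1292 bp at Cyp7b1.

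Most domains touched genes, and 640 of 20665 protein-coding genes (3.10%) had a start inside a domain, or an outer end where the promoter table gave no start. A total of 446 domains held an annotated start and 107 an outer end of a gene without one. Another 274 lay within or across a gene with neither, and 87 touched no protein-coding gene. KO coverage was 91.4, 91.2, 89.7 and 87.5% of the length of these 4 kinds, in that order. H3K4me2 in WT covered 79.3, 77.3, 61.2 and 60.5%, so that domains at gene starts carried more of this mark. Only 124 genes lay wholly inside a domain, and 900 were overlapped by at least 1 bp.

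Transcription factors that define hepatocytes were among the genes inside, 14 of the 41 listed, with a median KO coverage of 99.6% against 94.3% over all domains. That median describes the domains alone. Over the whole list, with 5000 bp on either side of the gene, H3K27ac was longer in KO at 20 genes and shorter at 21. Of all genes with the mark, 48.0% were longer and 51.9% shorter. Hnf4a, the nuclear receptor that organises the hepatocyte programme, started in a domain of 19242 bp that was wholly covered. The Rxra domain (36676 bp) was wholly covered too, Foxa3 (a forkhead pioneer factor, 24855 bp) was 99.7% covered, Nr2f2 (an orphan nuclear receptor, 26726 bp) 99.6% and Ppara (the fatty acid sensor, 22389 bp) 94.4%. Bcl6, a repressor that holds down female-biased genes in male liver, was the least covered of the 14, at 79.8% of 28412 bp. Cebpa and Foxa2, further factors of this programme, had no domain: Cebpa met a WT region of 8073 bp and a KO region of 7955 bp, and Foxa2 met 2 WT regions of 11080 bp together and 1 KO region of 11262 bp.

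Genes of secreted liver proteins were inside domains more often than most lists, with 19 of 48 plasma protein genes, 9 of 22 apolipoprotein genes and 13 of 34 coagulation and complement genes. Alb, which encodes serum albumin, started in a domain of 17176 bp (chr5:90455432-90472607) that lay wholly within a KO region of 53511 bp. Apoa1, Apoc3 and Apoa4, apolipoproteins of high-density and triglyceride-rich particles, shared a domain of 27423 bp within a KO region of 35140 bp. Ahsg (fetuin A, 27807 bp), Serpind1 (heparin cofactor II, 18892 bp) and Azgp1 (18596 bp) were wholly covered, Itih3 (20231 bp) was 95.4% covered and Igfbp1 (an IGF-binding protein induced after hepatectomy, 19577 bp) 93.4%. These plasma protein domains met a KO region wider than themselves in 13 of 19 cases, against 365 of all 914 domains. Over the whole plasma protein list, with 5000 bp on either side of the gene, H3K27ac length was longer in KO for 39 genes and shorter for 7, whereas over all 14785 genes with the mark 48.0% were longer and 51.9% shorter. Since Cre is driven by the albumin promoter, the transgene's promoter and the Alb locus share sequence, and its part in the Alb value was not tested.

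Masp1 (30456 bp, 99.6% covered) and Mbl1 (16465 bp, 99.8%), a protease and a lectin that start the lectin pathway of complement, kept their width in KO. Lrp1, a receptor that clears lipoprotein remnants, started in a domain of 36031 bp that was 97.9% covered, and Apoa2 in one of 19612 bp that was 92.7% covered. C8a, a complement pore subunit, was the least covered of the 12 coagulation and complement domains, with 3524 of 11025 bp (32.0%), and was picked out after its value was seen. Acute phase and interleukin 6 response genes had 11 of 30 inside. Among them were Lifr (a cytokine receptor subunit, 18530 bp, 99.1%), Cebpb (a factor of the acute phase response, 17121 bp, 96.1%), Il1r1 (16103 bp, 94.2%) and the metallothionein genes Mt1 and Mt2, which shared a domain of 14998 bp that was wholly covered.

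Metabolic genes were inside at lower rates, and the drug and steroid metabolism list had the lowest median KO coverage among the drug, amino acid, glucose and lipid lists. It had 16 of 105 genes inside, with a median of 85.2% and a range from 39.5 to 100%. That median describes the domains alone and not the whole list. Over the whole list, with 5000 bp on either side of the gene, H3K27ac was longer in KO at 62 genes and shorter at 40. Of all genes with the mark, 48.0% were longer and 51.9% shorter. Ephx2 (soluble epoxide hydrolase, 25237 bp) was 75.8% covered, Ephx1 (microsomal epoxide hydrolase, 18612 bp) 94.2% and Aldh2 (mitochondrial aldehyde dehydrogenase, 17433 bp) 93.5%. Of the 60 amino acid and urea cycle genes 14 were inside, with a median of 95.8%, and over that whole list 35 were longer and 24 shorter. Mat1a, which makes S-adenosylmethionine, had 96.0% of 29862 bp covered, Tat 95.7% of 28514 bp, Slc25a13 (the liver aspartate carrier) all of 26183 bp, Gamt 94.5% of 21104 bp and Got1 85.8% of 19929 bp.

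Of the glucose genes 9 of 41 were inside, with a median coverage of 89.8%. Over that whole list, with 5000 bp on either side of the gene, H3K27ac was longer in KO at 17 genes and shorter at 24. The gluconeogenic genes Pck1 (23512 bp, 97.0%), Fbp1 (19325 bp, 96.2%) and Pcx (17005 bp, 99.1%) were covered almost entirely, H6pd (23253 bp) was wholly covered, and Gcgr, the glucagon receptor, was covered over 75.4% of 16252 bp. Lipid, cholesterol and bile acid genes gave the most members, 28 of 91, with a median of 94.0%, and over that whole list 42 were longer and 49 shorter. Gpam (the first acyl transfer of triglyceride synthesis, 29794 bp) was 95.9% covered and Lpin2 (27010 bp) 92.0%. Hadha and Hadhb, the subunits of the mitochondrial trifunctional protein, shared a domain of 26366 bp that was 74.0% covered. Of 19 clock genes, Dbp (84.5%), Nfil3 (99.6%) and Per2 (73.3%) were inside. The collection time within the day is not given.

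Growth signalling genes had 17 of 77 inside, with a median of 97.8%. Over that whole list, with 5000 bp on either side of the gene, H3K27ac was longer in KO at 34 genes and shorter at 42. Smad7 (an inhibitor of TGF-beta signalling, 26222 bp) and Errfi1 (an inhibitor of Egfr, 19166 bp) were wholly covered, and Klf9 (21314 bp) and Klf15 (16661 bp) were 92.3 and 99.5% covered. None of 54 cell cycle genes and none of 23 SWI/SNF subunit genes had a start inside a domain. For lists of this length that lies near the 3.10% of all protein-coding genes. Over the gene and 5000 bp on either side, H3K27ac was longer in KO at 36 and shorter at 18 of the cell cycle genes. For the SWI/SNF genes it was longer at 9 and shorter at 14. Ccnd1, cyclin D1, which rises early in liver regeneration, met 3 WT regions of 15281 bp together, the widest of 8954 bp, and a single KO region of 17939 bp. Arid1a met 14 WT regions of 21140 bp together and 16 KO regions of 29159 bp, the widest of 7398 and 7121 bp.

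Markers of other liver cells were also found, although the submitters describe the material as hepatocytes from liver. None of 17 lymphocyte and none of 13 cholangiocyte markers had a start inside, which for such short lists lies near the 3.10% of all protein-coding genes. C1qa, C1qb and C1qc, complement genes of Kupffer cells, shared a domain of 15962 bp that was wholly covered, and Spi1, the macrophage factor PU.1, had one of 10707 bp of which 10706 bp were covered. The endothelial genes Eng (75.6%), Gpr182 (17949 bp, 97.4%), Kdr (12731 bp, 93.6%) and Erg (12345 bp, 91.4%) were inside, and of stellate markers only Hand2 (11200 bp, 70.1%). Over the gene and 5000 bp on either side, H3K27ac was shorter in KO at 16 of 20 endothelial and 13 of 16 stellate markers, where 51.9% of all genes with the mark were shorter and 48.0% longer. The Kupffer and neutrophil markers (8 shorter and 11 longer of 21) lay near those shares. Lymphocyte markers were shorter at 5 and longer at 8 of 17, and cholangiocyte markers shorter at 4 and longer at 2 of 13. In bulk chromatin, fewer cells of a type and less signal per cell cannot be told apart.

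**Figure D4:**
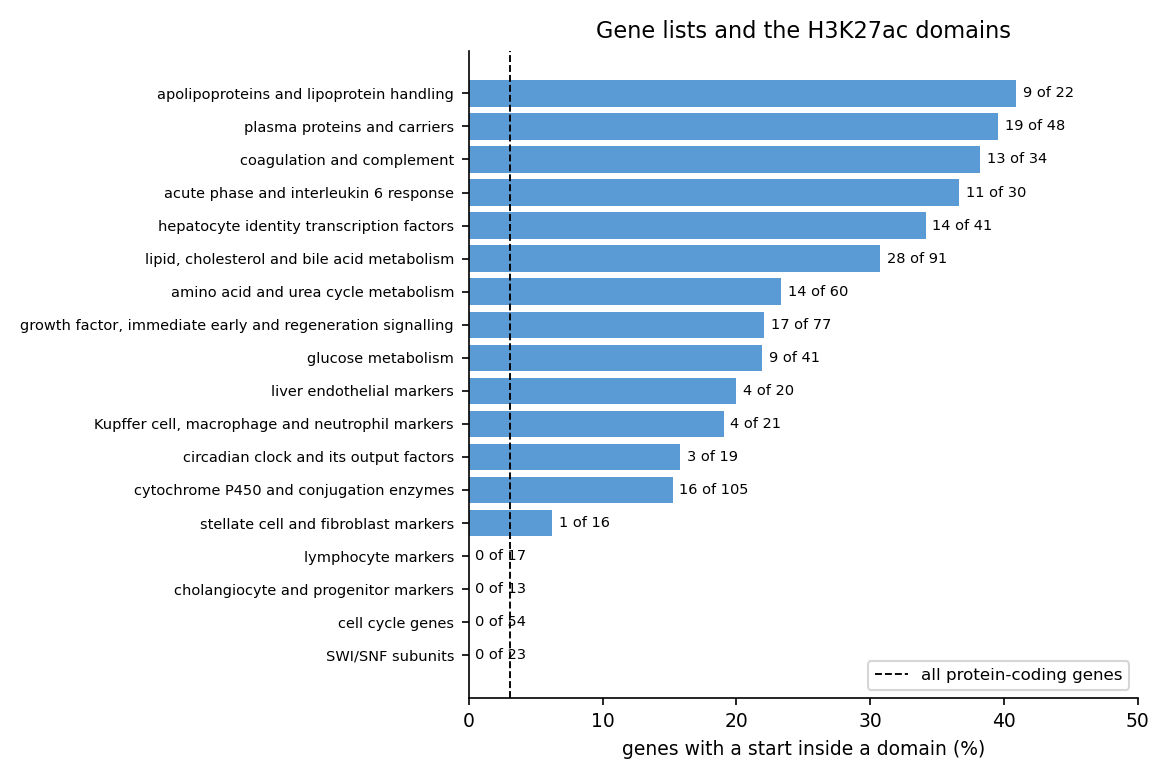
Share of the genes of each list with a start inside a domain (%, bars, with counts beside them) and the share over all protein-coding genes, 3.10% (dashed line). Apolipoprotein, plasma protein and coagulation genes lead with 9 of 22, 19 of 48 and 13 of 34. No cell cycle or SWI/SNF gene is inside, which for lists of this length lies near the dashed line.

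The 20 domains that were less than 50% covered in KO spanned 255969 bp in WT, of which KO H3K27ac covered 82103 bp. Lowest was a domain of 13860 bp that overlaps Zfp445 (chr9:122845199-122859058), a zinc finger gene of imprinting control, with 167 bp covered (1.20%). Cyp7b1, an oxysterol hydroxylase of bile acid synthesis that is higher in male liver, kept 1292 of 10737 bp (12.03%). Oat, ornithine aminotransferase, kept 2153 of 10762 bp (20.0%), and a domain that overlaps the end of Asic5, an ion channel gene, by 299 bp kept 2274 of 10293 bp (22.1%). The next 4 touched no protein-coding gene: chr13:52178474-52191877 (24.6%), chr17:32107522-32118108 (29.5%), chr14:55150733-55161758 (29.5%) and chr8:114085594-114096489 (31.8%). The widest of the 20 was at Clmn, which encodes a calponin-like membrane protein, where 9464 of 27302 bp (34.7%) were covered in 6 fragments.

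Others among the 20, named here after their values were seen, included Pdk4 (a kinase that shuts down pyruvate oxidation, 4223 of 11679 bp), Cmah (7341 of 18842 bp), Nek6 (6901 of 15555 bp), Sult2a8 (a sulfotransferase, 5804 of 14692 bp) and Cyp2d9 (a male-biased steroid hydroxylase, 4636 of 10085 bp). The 20 had a median WT fold of 6.09 against 6.74 in the other 894 and a median width of 10961 against 13346 bp. They were thus somewhat narrower and weaker in WT than the rest. Lists of sex-biased liver genes, written after these values were seen, moved with the H3K27ac comparison. Among 22 male-biased genes, H3K27ac at the gene and 5000 bp on either side was shorter in KO at 16 and longer at 3, and 8 dropped to 50% or less, compared with 10.6% of all genes. Among 23 female-biased genes it was shorter at 2 and longer at 17, and 11 rose to at least 2 times, compared with 7.15% of all genes.

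The male-biased genes that started in domains were Bcl6, Nudt7, Egfr, Cyp7b1, Slco1a1 and Cyp2d9, and no female-biased gene did. Their 6 domains had a median KO coverage of 60.1%, against 94.3% over all domains, and none met a KO region wider than itself. The list was written after values were seen, so these numbers are a description and no test. Nudt7, a peroxisomal hydrolase gene, kept 9993 of 17841 bp (56.0%) and Slco1a1, an organic anion transporter gene, 6535 of 10174 bp (64.2%). Since the WT library carried Y chromosome marks and the KO library Xist, the part of sex in these values cannot be told apart from that of the genotype.

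H3K4me2 was not used to choose the domains, and its extent within them was similar in both genotypes. It covered 71.9% of the domain length in WT and 74.5% in KO, with medians of 76.1 and 78.9% per domain. KO had the longer H3K4me2 in 526 domains, the shorter in 373 and the same in 15. These counts have no share over all regions beside them. The KO H3K4me2 list was also the longer one (73042 against 66832 regions). Narrower shared H3K27ac regions had a higher KO coverage too. It was 60.9% in WT and 63.9% in KO under 2000 bp. It was 67.2 and 69.6% from 2000 bp, and 69.8 and 71.6% from 5000 bp. The median difference, KO minus WT, was 1.76 percentage points in the domains and 0 over all regions. The higher covered share in KO was thus not particular to the domains. A KO length of at most 50% of WT was found in 13 domains (1.42%, exact 95% interval 0.759 to 2.42), where the share over all 36108 regions with the mark was 8.18%. A KO length of at least 2 times WT was found in 15 (1.64%, exact 95% interval 0.921 to 2.69), where the share was 13.2%. Both shares lay below those of all regions, and regions under 2000 bp made up 20343 of the 36108. Both also dropped with width across the narrower bins. At most 50% of WT was found in 10.9% under 2000 bp, 5.41% from 2000 bp and 2.73% from 5000 bp. At least 2 times WT was found in 17.4, 9.31 and 3.87% of these bins. With both H3K4me2 lists limited to −log10 q of at least 5 these counts were 41 and 71. The shares over all regions were not computed at this cut, so these counts have no background beside them. The intervals give counting error over regions only, and with 1 library per genotype there is no test.

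The largest H3K4me2 losses in bp were at Clmn (21485 bp in WT, 8079 in KO), within Egfr (chr11:16786273-16808704, 19892 to 10180), at Cyp2e1 (15719 to 8383) and at Lhpp (10804 to 3705). Egfr encodes the epidermal growth factor receptor and Cyp2e1 an ethanol-metabolising cytochrome of pericentral hepatocytes. H3K27ac coverage in KO was 34.7% at Clmn, 85.4% at the Egfr domain, 77.3% at Cyp2e1 and 64.8% at Lhpp. The Egfr domain that holds the start of the gene (15205 bp) was 91.2% covered by H3K27ac, and its H3K4me2 went from 15205 to 11082 bp. The largest gains in bp were within Zbtb16 (21005 to 31742), Tns1 (21598 to 31262), at Sh3bp5 (28092 to 37605) and within Mtss1 (73263 to 82562). All of them are among the 12 widest domains, which a ranking in bp favours. As shares of the domain length they went from 50.2 to 75.8%, 51.7 to 74.8%, 52.5 to 70.2% and 64.7 to 72.9%.

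**Figure D5:**
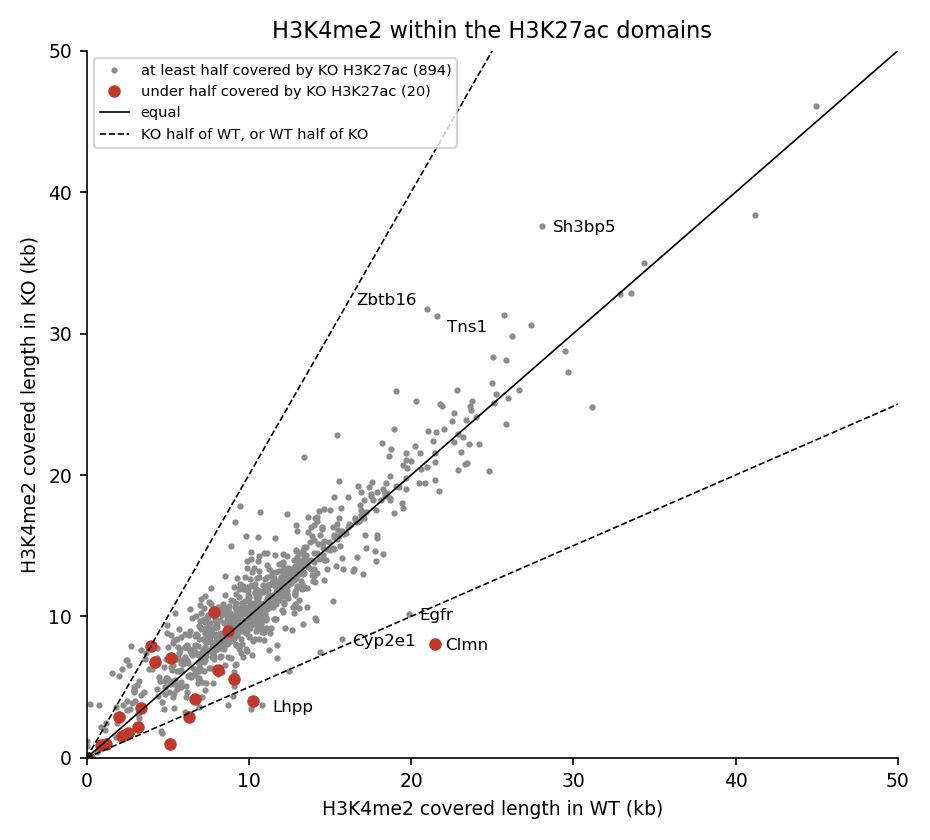
Length covered by H3K4me2 in WT (horizontal axis, kb) and in KO (vertical axis, kb) within each H3K27ac domain, with the domains under 50% covered by KO H3K27ac in red. Mtss1, at 73263 and 82562 bp, lies beyond the axes. Clmn, Egfr, Cyp2e1 and Lhpp have the largest losses in bp and lie near or below the lower dashed line.

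Domains that were less than 50% covered by KO H3K27ac had less H3K4me2 in both genotypes. H3K4me2 covered 43.9% of their length in WT and 33.8% in KO, against 72.4 and 75.2% in the other 894. A drop to at most 50% was seen in 5 of the 20 and in 8 of the 894. The 5 were Clmn, Zfp445 (167 to 0 bp), Cmah (6299 to 2867), chr13:52178474-52191877 (10224 to 4042) and chr15:75305143-75315964 (5153 to 969). At Cyp7b1 the lengths were 2520 and 1727 bp and at Cyp2d9 5220 and 7050 bp, and Pdk4 had 4229 in WT and 6756 in KO. Thus H3K4me2 was longer in KO in 8 of the 20 and shorter in 12. Over 910 domains with H3K4me2 in both genotypes, KO coverage by H3K27ac and the log2 ratio of H3K4me2 lengths had a Spearman rho of 0.00067. It is given as a description since the points share libraries. The WT H3K27ac list had regions at the Y genes named above and none at Xist, and the WT H3K4me2 list the reverse. The 2 marks were thus compared across libraries with unlike sex chromosome marks, and the part of this in these values was not tested.

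E2f4, which acts mostly at cell cycle promoters, had few summits in these domains. Summits lay in 56 and 31 domains in the WT libraries and in 3 and 10 in the KO libraries, or 43.5 ± 17.7 against 6.5 ± 4.95 (SD, n = 2 each). The groups did not overlap, and a two-sided exact permutation test over the 6 assignments returned p = 0.333, the lower limit for 4 libraries. The lists themselves differed in length: WT replicates held 1791 and 1058 peaks, KO replicates 287 and 683. Limited to the 287 strongest peaks of each list, 3 and 1 domains in WT and 3 and 2 in KO held a summit, so that the difference turned around to -0.5. In domains there were 4.13 and 2.21 summits per Mb in WT and 0.213 and 0.712 in KO, fewer per length in each library than in other shared regions (14.7, 9.83, 2.07 and 6.44 per Mb). Counted per region the order differed in WT only, where 6.13 and 3.39% of domains held a summit against 2.92 and 2.01% of the other, narrower regions. In KO the domains stayed lower, with 0.328 and 1.09% against 0.430 and 1.31%. Of regions of 5000 to under 10000 bp, 5.06 and 2.56% held a summit in WT and 0.506 and 1.58% in KO.

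A summit in both WT libraries was found in 24 domains. Of these, 8 (33.3%, exact 95% interval 15.6 to 55.3) had a KO summit. The interval gives counting error over regions only, since all domains share the same 4 libraries. In narrower shared regions the share with a KO summit was 440 of 626 (70.3%). The WT replicate 1 summits in domains were also weaker, with a median rank of 1068 against 753 in the other regions, and the part of peak strength in this difference was not tested. The strongest by WT replicate 1 was at Pdk4, ranked 149 and 288 in the WT lists, with no KO summit. The domain at Tubb5 and Mdc1, a tubulin gene and a DNA damage mediator gene, had summits in all 4 libraries (ranks 235 and 338 in WT, 185 and 271 in KO), and so did that at Kif13b (336 and 213 in WT, 163 and 276 in KO). The third domain with summits in all 4 overlapped an end of Fmo1 (1755 and 402 in WT, 203 and 625 in KO), named after its values were seen.

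Further domains with a summit in both WT libraries were at Arhgdia and P4hb, chr15:85666572-85689819, Nfib and Nucks1, none with a KO summit, and at Zfp36 and Plekhg2, with a summit in KO replicate 2. Zfp36 encodes an immediate early protein that destabilises messages of inflammation, and Nfib a nuclear factor of development. Only 1 domain had a KO summit and no WT summit, and 850 had none in any library.

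Domains at the edge of the rule did not stand apart from their neighbours in width. Just inside were Ghr (the growth hormone receptor, 10000 bp, 85.6% covered) and Fermt2 (10011 bp, 94.0%). Just outside were Igfbp7 (9997 bp, 96.1%), Cend1 with Slc25a22 (9997 bp, 100%) and Rps6ka1 (9994 bp, 85.8%). A further 5 WT regions of at least 10000 bp had no KO overlap and so were no members. They lay in Scara5 (2 regions of 11730 and 13558 bp), Enpp2 (12298 bp), Slc8a1 (12908 bp) and Mtor (12302 bp).

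With the rule turned around, all 1026 KO regions of at least 10000 bp overlapped a WT region, and WT H3K27ac covered 89.3% of their length. Under 50% was covered in 9 of them (0.877%), against 15.4% of all 40466 KO regions with a WT overlap. The 9, named after their values were seen, lay at B4galnt1 (4330 of 36510 bp covered in WT), Shroom3, Tiam2, Serpina3n (an acute phase protease inhibitor, 7397 of 22733 bp), Serpina3m, Nme7, Trip4 with Zfp609, Klb (5016 of 10112 bp) and Prkce. Klb, a co-receptor for the growth factor that restrains bile acid synthesis, and Serpina3n started inside these KO regions.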

How the data were processed

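The members and gene lists were chosen with earlier results of these data known. Groups came from the sample titles: 16 samples, 8 with a peak list and 8 inputs whose data were not analysed here. The submitters' processing notes name build mm10, HOMER, Picard, Bowtie2 2.2.3 and MACS2 2.0.10.20131216, without roles. The deposited lists, 1 per library, give positions and E2f4 summit offsets, a fold enrichment, −log10 p-values and −log10 q-values and a score. The authors' fold and −log10 q-value served to describe or filter regions within a list, and the deposited −log10 p-value and score were not used. Positions were written 1-based. Covered length is the number of bases of a WT domain inside the union of the other list's regions, computed with Python 3.11.15, pandas 2.3.3 and SciPy 1.17.1 and tested on simulated regions. Widths depend on depth, fragment length and the caller's threshold, all of which could differ between libraries. Gene positions and starts came from RefSeq (GRCm38.p6). In 18 gene lists, Lrh1, Tf, C5, Cyp2c44, G6pc1 and Bmal1 were not matched by symbol. Named by rule were the 12 widest domains, the 8 least and 8 most covered, the 4 largest changes of H3K4me2 each way, 8 domains with E2f4 in both WT libraries, up to 5 genes per list, 3 domains on either side of the threshold and 8 fixed genes. A few items that this rule names are not reported here. E2f4 was compared with an exact permutation test.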

Additional observations from a re-analysis of the deposited data

Results flagged for a closer look

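The WT H3K27ac list held 10 regions on chromosome Y, while the KO list held 2, none of them at Kdm5d, Eif2s3y, Uty or Ddx3y. This signal lies outside chromosomes 1 to 19, on which the domains were defined, and above the level in the other libraries (2 or fewer regions in each).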

How the results depend on the processing

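The number of domains was 1545 and 582 with a minimum width of 8000 and 12000 bp, and 1502 with regions less than 1000 bp apart merged. It was 826 with −log10 q of at least 5, 914 with lists of equal length and 1026 with the genotypes exchanged. In the same order, KO coverage was 89.3 and 91.4% (width), 87.2% (merged), 85.4% (q), 90.5% (equal length) and 89.3% (exchanged). Domains under 50% covered numbered 46 and 7, 71, 63, 20 and 9. Equal length kept the whole KO H3K27ac list, the shorter one, and dropped only the WT regions with the lowest −log10 q. That setting could change little for the wide domains, so its unchanged values are a weak check. H3K4me2 covered 55.9% in WT and 58.1% in KO with −log10 q of at least 5. It covered 71.8 and 75.3% of the KO-drawn domains, and 74.2% in KO with lists of equal length. Domains with a H3K4me2 length at most 50% or at least 2 times WT numbered 41 and 71 with −log10 q of at least 5, and 15 each with lists of equal length. Why the stricter q-value moved these counts was not tested. Genes wholly inside numbered 124 against 640 starts inside. For E2f4, the mean number of domains with a summit was higher in WT by 37 with summits or with any peak overlap, and by -0.5 with lists of equal length. That difference ranged from 24.5 (without WT replicate 1) to 49.5 (without WT replicate 2) when a library was left out. With the replicate number as a block it was 37, with an exact sign-flip p of 0.5, the smallest possible over 2 numbers. The numbers are not said to pair the libraries (correlation of same-numbered deviations 0.194 over 2105 merged regions). A KO region over at least 90% of the domain was found in 481 domains, against 657 with a KO region of at least 10000 bp. Depth is unknown, the marks have 1 library per genotype, and no library could be left out of their comparisons.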
